A study of Homo sapiens with 15 samples.

Results

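The mitochondrial ribosomal protein genes are the nuclear genes for the protein part of the mitoribosome, the ribosome inside mitochondria. They were taken as the protein-coding genes whose symbol is MRPL or MRPS followed by a number and at most 1 letter, which gives 78 genes in GENCODE 29, 29 with an MRPS and 49 with an MRPL symbol. Of these, 76 have an identifier among the 47634 in each table, 75 passed the filter on low counts, and MRPS21 and MRPL45 were not analysed here. The remaining member, MRPS18B, had 8 counts in all libraries together and at most 3 in any library, and was not tested.

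Their expression was measured by QuantSeq, a method that counts transcripts by their 3′ ends, in IGROV-CP20, an ovarian cancer cell line that tolerates cisplatin. The 15 libraries fall into 5 conditions with 3 biological replicates each: untreated cells, cells kept for 24 h in cisplatin at 50 µM, and cells that met this cisplatin dose after a day (24 h) in a second drug. That drug was Tranilast, Telmisartan or Amphotericin B, at 10 µM throughout. Each of these 3 conditions therefore holds cisplatin, and no condition has a drug without it. All libraries come from a single resistant line, and the parental IGROV line was not analysed here.

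Mitochondria keep a small genome of their own, whose messenger RNAs encode core subunits of the respiratory chain and are translated only by the mitoribosome. A small subunit reads the messenger RNA and a large subunit joins the amino acids. The ribosomal RNAs of the mitoribosome, MT-RNR1 and MT-RNR2, are made in the organelle, whereas every protein of it is encoded in the nucleus, made in the cytosol and imported. Part of the proteins have a counterpart in the bacterial ribosome and part are found only in mitochondria.

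The member genes lie apart, on 21 chromosomes, and their promoters are shown because they hold the ETS and YY1 motifs more often than other promoters do. RefSeq promoters (GRCh38.p14, from 250 bases before to 50 bases after the start) matched 69 of the 78 members, some with several starts, for 85 promoters in all. The ETS motif CCGGAAG, read by GABPA, was found on either strand in 33 of the 85 (38.8%), against 10.3% of all promoters and 18.2% of those of the other tested protein-coding genes. The YY1 motif AAGATGGC was found in 23 (27.1%), against 2.89% and 5.27%. On the sense strand its 18 matches lay from base -98 to base 36 around the start, with the median at base 15, inside the transcript. The NRF1 core GCATGCGC stood in 7.06% of member promoters against 5.22% of those of other tested genes, CACGTG in 10.6% against 9.63%, and the TATA box TATAAA in 3.53% against 5.5%. Below are the windows of MRPL44 and MRPS12, which had the smallest adjusted p with cisplatin, of MRPS27 and MRPL19, which had the smallest fold changes, and of MRPS11 and MRPL46, which face each other. Capitals mark the ETS or YY1 letters on either strand, and each sequence runs 5′ to 3′ on the strand of its gene.
MRPL44, chr2:223957213-223957512, plus strand: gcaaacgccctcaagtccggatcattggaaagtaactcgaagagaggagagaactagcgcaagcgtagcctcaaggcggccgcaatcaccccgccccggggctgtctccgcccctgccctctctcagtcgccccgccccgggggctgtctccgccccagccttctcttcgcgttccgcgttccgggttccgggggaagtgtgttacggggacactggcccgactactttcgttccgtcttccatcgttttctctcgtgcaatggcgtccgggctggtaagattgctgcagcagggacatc
MRPS12, chr19:38930694-38930993, plus strand: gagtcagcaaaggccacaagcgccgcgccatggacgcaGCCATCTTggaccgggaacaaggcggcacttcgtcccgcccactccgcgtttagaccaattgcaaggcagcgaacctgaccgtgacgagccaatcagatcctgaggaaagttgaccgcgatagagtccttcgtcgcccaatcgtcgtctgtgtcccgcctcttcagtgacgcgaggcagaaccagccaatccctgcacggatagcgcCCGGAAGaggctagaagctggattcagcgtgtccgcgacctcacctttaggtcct
MRPS27, chr5:72320191-72320490, minus strand: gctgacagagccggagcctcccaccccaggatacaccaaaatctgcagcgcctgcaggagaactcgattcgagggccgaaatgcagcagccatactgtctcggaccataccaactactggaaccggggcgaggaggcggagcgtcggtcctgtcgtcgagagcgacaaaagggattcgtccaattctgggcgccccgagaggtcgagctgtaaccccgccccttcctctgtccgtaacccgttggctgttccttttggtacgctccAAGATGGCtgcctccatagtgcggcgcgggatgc
MRPL19, chr2:75646533-75646832, plus strand: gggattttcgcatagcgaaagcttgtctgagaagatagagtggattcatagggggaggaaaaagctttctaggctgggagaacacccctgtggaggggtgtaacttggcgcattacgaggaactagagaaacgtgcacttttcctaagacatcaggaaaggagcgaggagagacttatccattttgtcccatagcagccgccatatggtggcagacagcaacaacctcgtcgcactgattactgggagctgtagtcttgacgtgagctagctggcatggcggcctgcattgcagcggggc
MRPS11, chr15:88467458-88467757, plus strand: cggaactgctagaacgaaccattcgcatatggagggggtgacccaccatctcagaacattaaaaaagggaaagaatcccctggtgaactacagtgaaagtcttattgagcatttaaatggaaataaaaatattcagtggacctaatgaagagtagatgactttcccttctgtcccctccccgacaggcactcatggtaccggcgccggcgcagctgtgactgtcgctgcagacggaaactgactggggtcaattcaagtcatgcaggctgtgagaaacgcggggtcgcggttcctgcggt
MRPL46, chr15:88467339-88467638, minus strand: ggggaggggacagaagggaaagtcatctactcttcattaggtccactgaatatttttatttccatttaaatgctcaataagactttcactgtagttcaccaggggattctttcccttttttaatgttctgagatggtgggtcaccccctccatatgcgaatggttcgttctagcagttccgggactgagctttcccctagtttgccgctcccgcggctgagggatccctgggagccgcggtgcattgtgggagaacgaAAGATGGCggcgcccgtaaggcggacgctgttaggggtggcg
MRPS12, which RefSeq lists with 2 nearby starts and whose first window is shown, held an ETS match at its start and a YY1 match upstream, MRPS27 and MRPL46 held the YY1 letters just after the start, and MRPL44, MRPL19 and MRPS11 held neither in these windows. As a description, with cisplatin against untreated cells 10 of the 19 tested members with the YY1 letters rose and 0 fell. Of the 47 without them, 21 rose and 2 fell. Of the 29 with the ETS letters 11 rose and 1 fell, and of the 37 without them 20 rose and 1 fell. Of all genes tested, 21.1% rose and 23.6% fell. The median log2 fold change was 0.59 with and 0.37 without the YY1 letters, and 0.34 with and 0.52 without the ETS letters. The part of these motifs in the changes was not tested.

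Total counts ran from 1510620 to 3517041 per library. Of the markers of the labelled cell type, KRT18 had 182 to 463 counts and EPCAM 14 to 163, while PAX8 and WT1 reached at most 1 count and MUC16 at most 4. The 4 leukocyte markers summed to 223 to 297 counts in untreated libraries 9 to 32 with cisplatin, 19 to 100 with Tranilast, 9 to 31 with Telmisartan and 15 to 19 with Amphotericin B, with CD3E at 0 throughout; their part in the results was not tested. Fewer cells of a type and less RNA per cell cannot be told apart in these bulk libraries. Libraries stood apart within the cisplatin and Telmisartan conditions: the summed level of MT-RNR1 and MT-RNR2 was 190982, 59735 and 31841 CPM (counts of a gene for every 1000000 counts of its library, after scaling) in cisplatin replicates 1, 2 and 3, and 122532, 157726 and 29613 CPM in those of Telmisartan. These RNAs took 13.7%, 5.61% and 3.41% of all counts in cisplatin replicates 1, 2 and 3, and 1.79% to 2.20% in untreated libraries. With values scaled by the total alone, RNAs that take a larger share lower all others. Levels below are therefore CPM scaled by edgeR's TMM factors, and changes are also given relative to the median of all 11113 genes tested. How much of the difference between scalings comes from the mitochondrial ribosomal RNAs was not tested.

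The summed level of the member genes was higher with cisplatin than without it, and close to the untreated level when Tranilast came first. It was 5466, 5347 and 5087 CPM in the untreated libraries and 7823, 7755 and 7145 CPM with cisplatin. It was 5692, 5709.8 and 5396 CPM with Tranilast, 8004, 7705 and 5850.3 CPM with Telmisartan and 8915, 8197 and 8539 CPM with Amphotericin B. All cisplatin and Amphotericin B libraries lay above all untreated and Tranilast libraries, while Telmisartan replicate 3 lay well below its other replicates and near the Tranilast libraries. On the library total alone, without TMM factors, the ranges of untreated (5891 to 6370 CPM) and cisplatin libraries (5615 to 7661 CPM) overlapped, and the Tranilast libraries (6798 to 7067 CPM) lay above the untreated ones. The ratio of the small subunit members to the large subunit members, which does not depend on scaling, was 0.769 to 0.813 in untreated libraries, 0.804 to 0.923 with cisplatin and 0.835 to 0.883 with Tranilast. With Amphotericin B it was 0.698 to 0.739, below every library of these 3 conditions, and with Telmisartan it was 0.738 to 0.891.

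**Figure D1:**
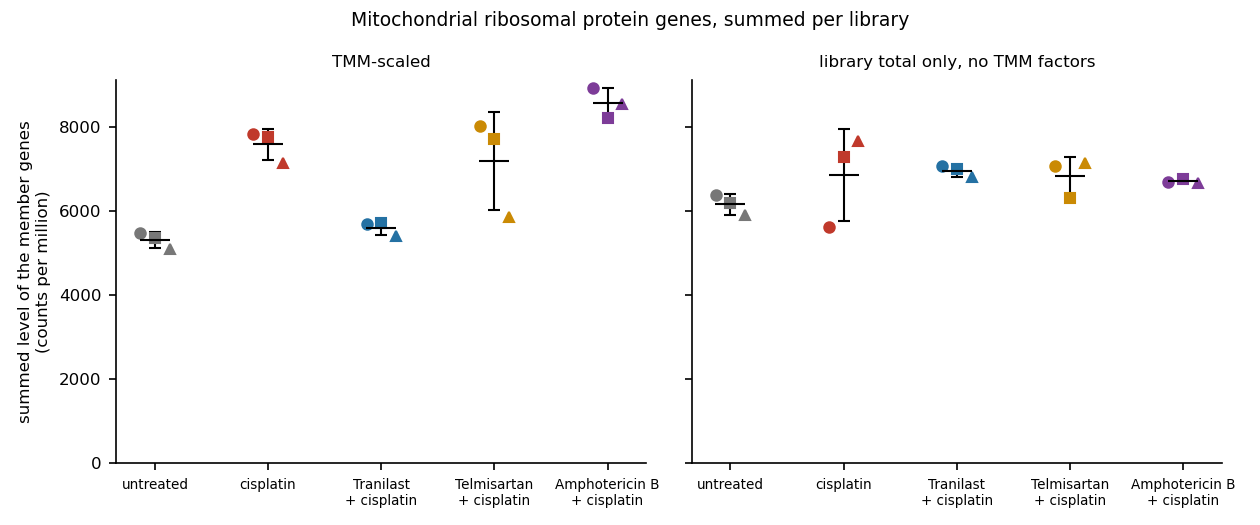
Summed level of the 76 member genes in each library, in CPM with TMM factors (left) and of the library total alone (right); circle, square and triangle are replicates 1, 2 and 3, and the bar is the mean ± SD of 3 libraries. With TMM factors the cisplatin libraries (7145 to 7823) lie above the untreated ones (5087 to 5466), and on the library total alone they overlap.

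Cisplatin against untreated cells asks how the mitoribosome genes respond to platinum. Of 75 tested members, 35 rose (46.7%) and 3 fell (4%), where 21.1% of all genes tested rose and 23.6% fell. The members' median log2 fold change was 0.43 and that of all genes -0.01. With scaling by library size only, 14 rose and 6 fell, with medians of 0.08 for the members and -0.36 for all genes. The members' distance from all genes was 0.44 under both scalings. A change of scaling moves all genes by nearly the same amount, so this equality is no test of the result. The 3 cisplatin libraries lay entirely above the untreated ones for 42 members and entirely below them for 5, where 24% and 29.5% of all genes did so.

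In the small subunit, 11 of 24 tested members rose and 2 fell. MRPS12, the protein at the decoding centre, had 102, 89.2 and 105 CPM in untreated cells and 249.8, 276 and 214 CPM with cisplatin. Every cisplatin library lay far above every untreated library, a log2 fold change of 1.32 ± 0.18 (SE) and an edgeR adjusted p of 2.52e-05. MRPS2, MRPS17, MRPS24 and MRPS11, which have bacterial counterparts, and MRPS26, which is found only in mitochondria, rose with values that did not overlap. Their log2 fold changes were 1.18 ± 0.17, 1.17 ± 0.20, 1.01 ± 0.18, 0.97 ± 0.21 and 1.11 ± 0.18 (SE). MRPS7, MRPS16, MRPS18C, MRPS25 and MRPS34 also rose, by 0.42 to 0.73. Against these, MRPS31, a mitochondria-specific protein of the small subunit's head, had 50.4, 49.2 and 51.9 CPM in untreated cells and 35.3, 18.1 and 31.0 CPM with cisplatin. No library of either condition reached into the other, and MRPS31 fell, with a log2 fold change of -0.85 ± 0.21 (SE) and an edgeR adjusted p of 0.00433. MRPS28, the counterpart of bacterial S1, had 42.4, 48.3 and 51.2 CPM without and 43.1, 20.1 and 21.8 CPM with cisplatin. Cisplatin replicate 1 lay among the untreated libraries and the other replicates far below, and MRPS28 fell with a log2 fold change of -0.75 ± 0.24 (SE) and an edgeR adjusted p of 0.0188; without cisplatin replicate 2 or 3, or untreated replicate 3, its call was lost (adjusted p = 0.103, 0.0816 and 0.0627).

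In the large subunit, 23 of 50 tested members rose and 1 fell. MRPL44, which has the fold of ribonuclease III and no bacterial ribosomal counterpart, had 20.1, 17.6 and 20.9 CPM without and 49.8, 72.6 and 55.6 CPM with cisplatin. Its cisplatin libraries all lay above its untreated ones, a log2 fold change of 1.60 ± 0.20 (SE) and an edgeR adjusted p of 1.75e-05, the smallest adjusted p among the members. MRPL4, which lines the exit tunnel, had 44.3, 44.9 and 46.1 CPM without and 174, 152 and 107 CPM with cisplatin. This was the largest fold change among the 75, a log2 fold change of 1.67 ± 0.23 (SE) and an edgeR adjusted p of 3.04e-05. MRPL2 and MRPL36 rose by 1.29 ± 0.41 and 1.53 ± 0.40 (SE), the latter on at most 29 counts in a library. The rise was seen in MRPL9, MRPL10, MRPL11, MRPL16, MRPL18, MRPL21, MRPL32, MRPL33 and MRPL34, which have bacterial counterparts, and in MRPL37, MRPL38, MRPL41, MRPL43, MRPL49, MRPL50, MRPL52 and MRPL57, which are found only in mitochondria; MRPL49 overlaps FAU, a far more abundant gene on the opposite strand. Of all 35 higher members, 14 kept their call with scaling by library size only and 13 kept it in each of 21 refits, and MRPL43, MRPS7 and MRPL10 lost it in 16, 12 and 11. MRPL55 and MRPS30, a large subunit protein in spite of its symbol, rose by 0.62 ± 0.18 and 0.59 ± 0.21 (SE). The only large subunit member that fell was MRPL1, the protein of the mobile L1 stalk, with 123, 107 and 121 CPM without and 80.6, 59.8 and 79.8 CPM with cisplatin. All its cisplatin libraries lay below the untreated ones, a log2 fold change of -0.67 ± 0.18 (SE) and an edgeR adjusted p of 0.00699. MRPS27 (138, 132 and 127 CPM without and 128, 126 and 140.2 CPM with cisplatin) overlapped between the conditions, with a log2 fold change of -0.01 ± 0.15 (SE) and an edgeR adjusted p of 0.954. The count of members that rose was 23 without cisplatin replicate 2 and 23 to 38 over all fits that left out 1 library.

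**Figure D2:**
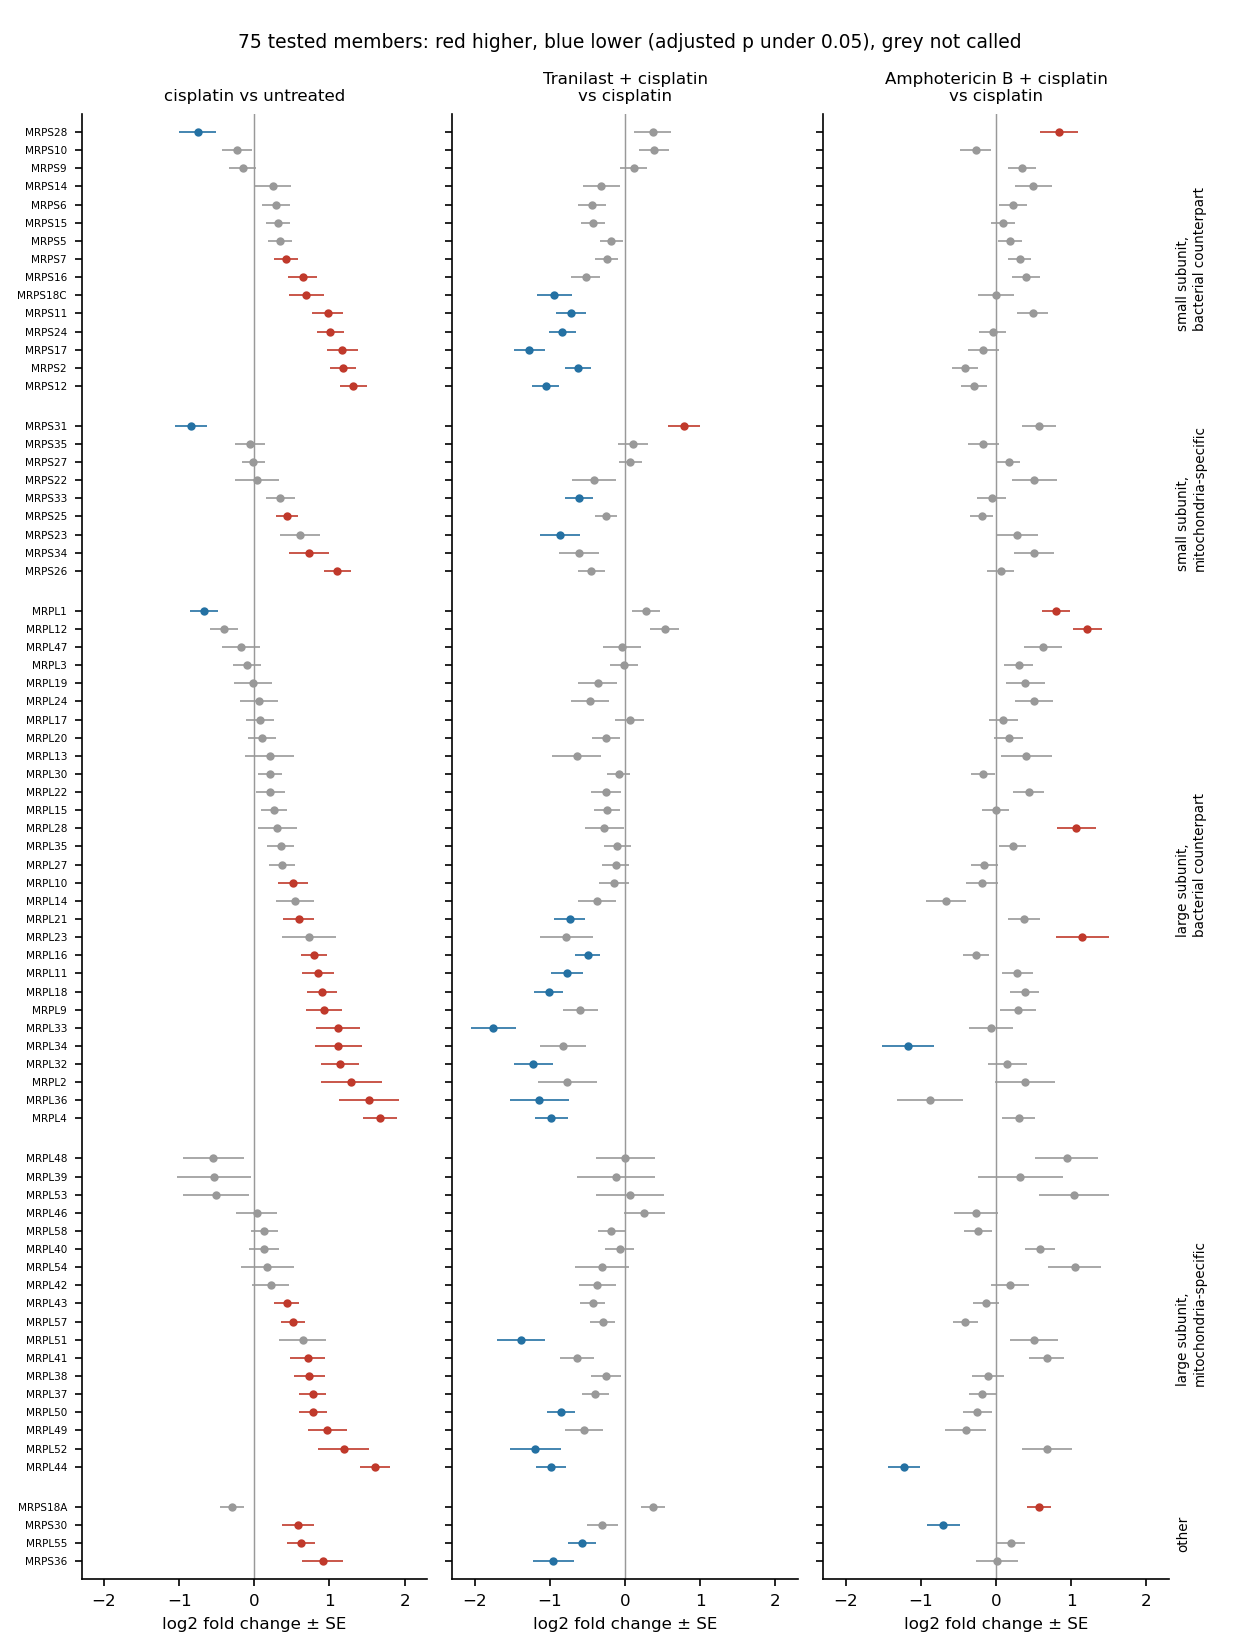
Log2 fold change ± SE of the 75 tested members in 3 comparisons, ordered by role and by the change with cisplatin; red is higher, blue lower (edgeR, adjusted p under 0.05) and grey not called. Left: 35 red and 3 blue; middle: 1 red and 22 blue; right: 6 red and 3 blue, with 14 and 6, 5 and 5, and 3 and 2 when scaled by library size only. The middle and right panels share their cisplatin libraries with the left one.

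Tranilast before cisplatin was compared with cisplatin alone to see what the drug changes in platinum-treated cells. Of the 75 members, 22 were lower (29.3%) and 1 higher (1.33%), where 11.6% of all genes were lower and 10.5% higher. Their median log2 fold change was -0.40 against 0.02 for all genes. With scaling by library size only, 5 were lower and 5 higher, with medians of 0.05 and 0.46. The members' median was thus positive under that scaling. It lay 0.42 below that of all genes, a distance that scaling can hardly alter. The Tranilast libraries lay entirely below the cisplatin ones for 37 members and above for 4, where 18.9% and 21.4% of all genes did so.

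MRPL33, a small protein of the large subunit with a bacterial counterpart, showed the largest difference. It had 153, 92.7 and 72.3 CPM with cisplatin and 27.5, 29.7 and 36.1 CPM with Tranilast and cisplatin, below the untreated libraries too. The conditions did not overlap, a log2 fold change of -1.75 ± 0.30 (SE) and an edgeR adjusted p of 0.00182. MRPS17 had 124, 135 and 111 CPM with cisplatin and 47.6, 55.9 and 49.2 CPM with Tranilast, a log2 fold change of -1.28 ± 0.20 (SE) and an edgeR adjusted p of 0.00163. MRPS12 had 117, 128 and 109 CPM with Tranilast, a log2 fold change of -1.06 ± 0.17 (SE) and an edgeR adjusted p of 0.00163. These MRPS12 libraries lay below all cisplatin libraries and just above all untreated ones. MRPL44 had 32, 32.2 and 26.0 CPM with Tranilast, between the untreated and the cisplatin libraries with no overlap, a log2 fold change of -0.99 ± 0.20 (SE) and an edgeR adjusted p of 0.00348. MRPL18, MRPL32, MRPL50 and MRPS24 were lower, with log2 fold changes of -1.02 ± 0.19, -1.23 ± 0.26, -0.85 ± 0.19 and -0.84 ± 0.18 (SE), and the calls of MRPL18, MRPL44, MRPL50 and MRPS24 were lost with scaling by library size only. MRPL32 is cut by a mitochondrial protease before it enters the ribosome. MRPL4, MRPL11, MRPL16, MRPL21, MRPL36, MRPL51, MRPL52, MRPL55, MRPS2, MRPS11, MRPS18C, MRPS23, MRPS33 and MRPS36 made up the rest of the lower members. Of these, MRPL51 and MRPL52 had the largest log2 fold changes, -1.38 ± 0.32 and -1.20 ± 0.34 (SE). The single higher member was MRPS31, with 47.3, 53.7 and 44.5 CPM with Tranilast, all above the cisplatin libraries and around the untreated ones, a log2 fold change of 0.79 ± 0.21 (SE) and an edgeR adjusted p of 0.0157. Of all 22 lower members, 5 kept their call with scaling by library size only and 5 in each of 21 refits. Without cisplatin replicate 2, 11 members were lower and MRPS31 was no longer called (adjusted p = 0.0797). The count of lower members was also 11 without Tranilast replicate 3 and 14 without Tranilast replicate 1.

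**Figure D3:**
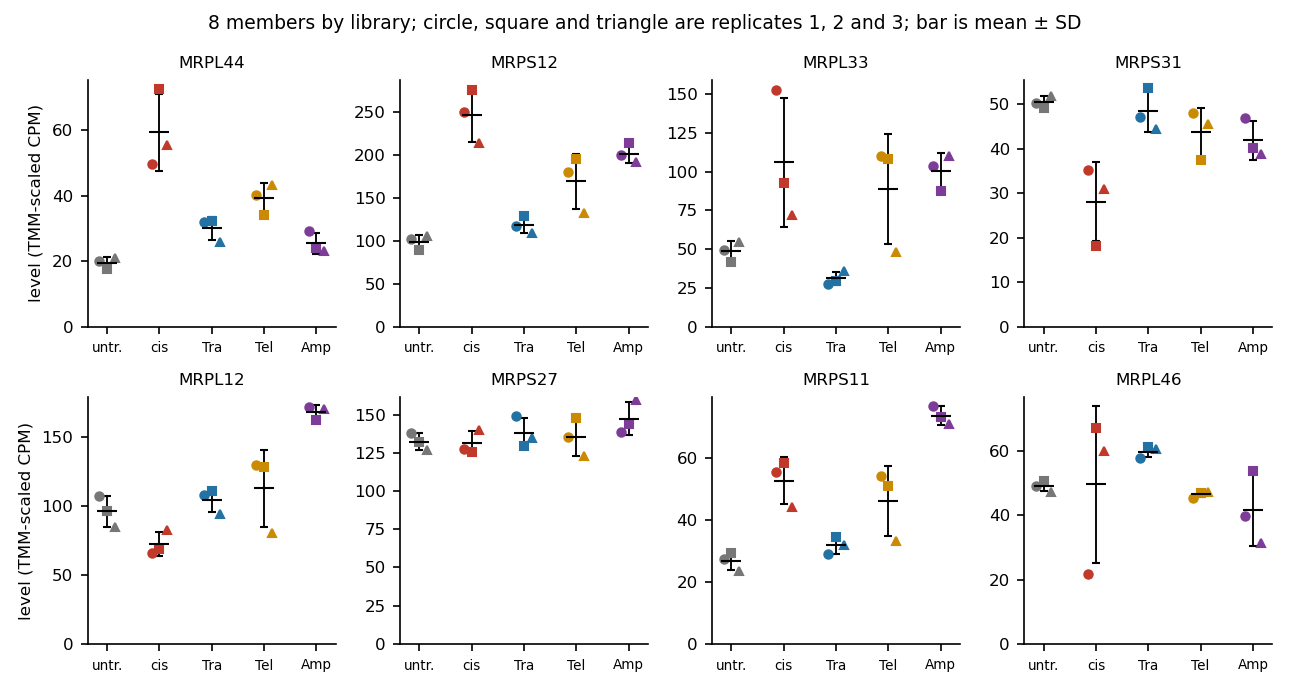
Level of 8 members in each library, in TMM-scaled CPM; untr., untreated; cis, cisplatin; Tra, Tel and Amp, Tranilast, Telmisartan and Amphotericin B before cisplatin; the bar is the mean ± SD of 3 libraries. MRPL44 and MRPS12 are highest with cisplatin alone, MRPS31 is lowest there, MRPL12 and MRPS11 are highest with Amphotericin B, and MRPS27 is level.

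Set against untreated cells, the cells given Tranilast and cisplatin had 1 member higher and 0 lower, where 2.44% of all genes were higher and 5.66% lower. At an unadjusted p under 0.05 there were 5 higher and 3 lower members, where 8.67% and 12.7% of all genes were, and DESeq2 called 3 higher and 0 lower. The median of the members was 0.04 against -0.01 for all genes. The Tranilast libraries lay entirely above the untreated ones for 19 members and below for 10, where 21.1% and 25.1% of all genes did so. The called member was MRPS26, with 206, 212 and 179 CPM untreated and 346, 332 and 263 CPM with Tranilast, a log2 fold change of 0.65 ± 0.18 (SE) and an edgeR adjusted p of 0.0302. A fit of only these 6 libraries called 14 higher and 7 lower, where that fit called 17.0% of all genes higher and 19.3% lower.

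Amphotericin B before cisplatin, against cisplatin alone, raised 6 members (8%) and lowered 3 (4%), where 4.21% of all genes were higher and 9.01% lower. The members' median was 0.20 against -0.04 for all genes, and 0.01 against -0.25 with scaling by library size only. The Amphotericin B libraries lay entirely above the cisplatin ones for 16 members and below for 8, where 10.9% and 13.8% of all genes did so. MRPL12, the stalk protein that recruits translation factors, had 66.1, 68.7 and 82.2 CPM with cisplatin and 172, 162 and 169.9 CPM with Amphotericin B. The latter also lay above all untreated libraries (107, 96.1 and 84.8 CPM), and MRPL12 rose with a log2 fold change of 1.21 ± 0.19 (SE) and an edgeR adjusted p of 0.00356. MRPL1, which cisplatin lowered, had 117, 139 and 129 CPM with Amphotericin B, a log2 fold change of 0.80 ± 0.19 (SE) and an edgeR adjusted p of 0.0127. MRPL28 had 96.3, 59.8 and 70.7 CPM with cisplatin and 188, 146 and 140.1 CPM with Amphotericin B, with no overlap and a log2 fold change of 1.07 ± 0.26 (SE) and an edgeR adjusted p of 0.0149. MRPL23, at the exit of the tunnel, MRPS28 and MRPS18A rose by 1.15 ± 0.35, 0.84 ± 0.26 and 0.57 ± 0.16 (SE), but lost their calls in 11, 13 and 7 of 21 refits.

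In the other direction, MRPL44 had 29.2, 24.1 and 23.1 CPM with Amphotericin B, below all cisplatin libraries and above all untreated ones, a log2 fold change of -1.22 ± 0.21 (SE) and an edgeR adjusted p of 0.00406. MRPL34 and MRPS30 fell, with log2 fold changes of -1.18 ± 0.35 and -0.70 ± 0.22 (SE), and MRPS30, whose libraries overlapped, lost its call in 16 of 21 refits. These calls rested on few libraries. A fit of only the 6 libraries called 1 member higher, MRPL12, and 0 lower, against 13 higher and 3 lower at an unadjusted p under 0.05, and leaving out cisplatin replicate 1, which of the cisplatin libraries held the most mitochondrial ribosomal RNA, gave 18 higher and 7 lower, where 16.6% of all genes were then higher and 17.2% lower.

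Telmisartan before cisplatin, against cisplatin alone, gave 0 members past the threshold in either direction, by edgeR and by DESeq2, as it gave 0 of all genes by edgeR. At an unadjusted p under 0.05, 5 members were lower and 3 higher, where 5.33% and 5.02% of all genes were. The smallest unadjusted p, 0.0016, belonged to MRPS17, with 93.9, 78.4 and 49.8 CPM and a log2 fold change of -0.75 ± 0.20 (SE) and an edgeR adjusted p of 0.294. MRPL12, MRPS12 and MRPL44 followed, with log2 fold changes of 0.63 ± 0.19, -0.55 ± 0.17 and -0.59 ± 0.20 (SE) and adjusted p of 0.315, 0.315 and 0.326. For MRPS17, MRPS12 and MRPL44 all Telmisartan libraries lay below all cisplatin ones. The median of the members was -0.08 and that of all genes 0.00 (0.01 and 0.11 with scaling by library size only, where the sign turned), and a p that misses the threshold does not show that the conditions were alike. All Telmisartan libraries lay below all cisplatin ones for 5 members and above for 1, where 4.89% and 4.38% of all genes did so.

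Against untreated cells, 26 members were higher and 0 lower with Telmisartan and cisplatin (12.8% and 15.8% of all genes), and 38 higher and 0 lower with Amphotericin B and cisplatin (17.6% and 23.3%). Both share the untreated libraries with the comparison of cisplatin alone. MRPL4 led both, at 1.59 ± 0.23 and 1.97 ± 0.23 (SE), beside 1.67 ± 0.23 with cisplatin alone. MRPS11 was 1.46 ± 0.21 (SE) above untreated with Amphotericin B, and MRPL18 0.98 ± 0.19 with Telmisartan and 1.28 ± 0.20 with Amphotericin B. The medians of the members relative to all genes were 0.39 with Telmisartan and 0.76 with Amphotericin B, where all genes had a median of -0.19 in the latter. Scaled by library size only, the counts were 7 higher and 2 lower, and 16 higher and 4 lower. Leaving out untreated replicate 3 or Telmisartan replicate 1 gave 11 or 9 higher members with Telmisartan.

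The drugs were also compared with each other, at matched cisplatin dose and time and at the same drug concentration; p was adjusted over all genes within each pair. Between Tranilast and Amphotericin B, 40 members were lower with Tranilast and 1 higher, where 16.4% of all genes were lower and 19.7% higher. MRPL18 (27.9, 28.6 and 29.8 CPM with Tranilast, 78.9, 61.0 and 88.0 CPM with Amphotericin B) was lower with a log2 fold change of -1.40 ± 0.20 (SE) and an edgeR adjusted p of 0.000808. MRPS11 and MRPL51 were lower, with log2 fold changes of -1.21 ± 0.20 and -1.89 ± 0.33 (SE), and their conditions did not overlap. The higher member was MRPS10, with 198, 174 and 213 CPM against 130.1, 126 and 116 CPM and a log2 fold change of 0.65 ± 0.20 (SE) and an edgeR adjusted p of 0.0197. The members' median was 0.71 below that of all genes, which was 0.15. By library size only, 10 were lower and 15 higher, and the members' median was 0.10 against 0.81 for all genes. That distance, again 0.71, is one that scaling can hardly alter. Between Tranilast and Telmisartan, 6 were lower and 0 higher (1.75% and 0.585% of all genes), led by MRPL18, MRPL33 and MRPL32 at -1.10 ± 0.19, -1.49 ± 0.30 and -1.09 ± 0.26 (SE). That count was 32 without Telmisartan replicate 3, the library that stood apart, and 0 when any 1 of 11 other libraries was left out, the untreated and Amphotericin B ones among them. The share of all genes called in those fits is not given here, so these counts are no result about the members alone. Between Telmisartan and Amphotericin B it was 0 in both directions by edgeR and DESeq2, with 11 lower and 3 higher at an unadjusted p under 0.05 (7.49% and 13.1% of all genes).

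Some members are of interest for their role whatever their change. The stalk of the large subunit has MRPL10 at its base and MRPL12 on top. MRPL10 had 26.8, 27.3 and 24.7 CPM in untreated cells and 36.4, 35.3 and 40.9 CPM with cisplatin, a log2 fold change of 0.52 ± 0.20 (SE) and an edgeR adjusted p of 0.0408, while MRPL12 had a log2 fold change of -0.40 ± 0.19 (SE) and an edgeR adjusted p of 0.0927. With Amphotericin B against cisplatin MRPL12 rose, as above, and MRPL10 had a log2 fold change of -0.19 ± 0.21 (SE) and an adjusted p of 0.561. The 3 MRPS18 paralogues derive from the same bacterial protein and sit at different places, MRPS18C in the bacterial position, MRPS18B elsewhere on the small subunit and MRPS18A on the large subunit. MRPS18C had 76.5, 69.3 and 81.2 CPM in untreated cells, 142, 139 and 87.0 CPM with cisplatin and 68.1, 60.5 and 62.7 CPM with Tranilast. It rose with cisplatin and was lower with Tranilast (0.69 ± 0.23 and -0.94 ± 0.24 on the log2 scale, SE; adjusted p = 0.0225 and 0.00986). MRPS18A had 117, 119 and 114 CPM in untreated cells and 85.1, 90.3 and 108 CPM with cisplatin, all below, with a log2 fold change of -0.30 ± 0.16 (SE) and an edgeR adjusted p of 0.14. MRPL58, a peptidyl-tRNA hydrolase that frees stalled ribosomes, had 75.9, 59.0 and 65.9 CPM without and 72.2, 79.0 and 68.7 CPM with cisplatin. Its libraries overlapped and it was called in none of the 10 comparisons. MRPS36, now named KGD4 and known as part of the ketoglutarate dehydrogenase complex and not of the ribosome, had 33.8, 34.2 and 37.2 CPM without, 104, 53.5 and 41.7 CPM with cisplatin and 32.7, 32.2 and 36.8 CPM with Tranilast. It was called higher and lower in the first and second step (adjusted p = 0.0124 and 0.0198), and its cisplatin value was highest in replicate 1.

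Apart from MRPL58, 15 members passed the threshold in none of the 10 comparisons: MRPL3, MRPL14, MRPL15, MRPL17, MRPL20, MRPL27, MRPL30, MRPL39, MRPL42, MRPL46, MRPL48, MRPL53, MRPS9, MRPS27 and MRPS35. MRPL39 and MRPL53 are among the members with the lowest mean, 6.60 and 8.30 CPM, and have wide errors, whereas MRPS27 had log2 fold changes between -0.12 and 0.17 over the 10 comparisons, each with an SE of 0.15.

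Many member genes start back to back with another gene. In GENCODE 29, 17 of the 75 tested members (22.7%) start within 1000 bases of an oppositely oriented protein-coding gene, against 10.5% of 10006 other tested protein-coding genes. MRPS11 and MRPL46, a small and a large subunit gene, face each other with annotated starts 34 bases apart; in RefSeq the starts are 320 bases apart and the windows printed above share 181 bases. MRPL46 had 49.1, 50.6 and 47.3 CPM in untreated cells, 21.8, 67.2 and 60.0 CPM with cisplatin and 57.7, 61.1 and 60.5 CPM with Tranilast. MRPS11 had 27.4, 29.3 and 23.4 CPM in untreated cells, 55.4, 58.4 and 44.1 CPM with cisplatin and 29, 34.3 and 31.8 CPM with Tranilast. All MRPS11 values with cisplatin lay above those without it and those with Tranilast, while MRPL46 was lowest in cisplatin replicate 1 and overlapped. The log2 ratio of MRPS11 to MRPL46 in each library, which needs no scaling, was -0.82, -0.77 and -0.99 in untreated cells and 1.31, -0.20 and -0.44 with cisplatin. Tranilast libraries had ratios of -0.97, -0.82 and -0.91, and Amphotericin B libraries 0.93, 0.44 and 1.16. For Telmisartan the ratios were 0.25, 0.11 and -0.51. Every cisplatin library lay above every untreated one, with a mean difference of 1.09, and cisplatin replicate 1 stood far from the others; without it, an alternative chosen after seeing the data, the difference was 0.54. The exact two-sided permutation test gave p = 0.1, the smallest that 3 against 3 libraries allow, so it could not pass the threshold. MRPS11 was named for its small adjusted p with cisplatin, and MRPL46 was chosen after values of the same libraries were seen. The test therefore cannot decide whether the ratio changed, and the ratios are given as a description. Of the 17 members with a facing gene, that gene was tested as well for 14, MRPS11 and MRPL46 both among them. Of these 14 members 9 rose with cisplatin, where 21.1% of all genes rose and 23.6% fell. Their facing genes were not called, which does not show that they were unchanged. TCP1, IGHMBP2, NDUFS6, SKA3 and HELQ had log2 fold changes of 0.31 ± 0.20, 0.65 ± 0.35, 0.73 ± 0.31, 0.48 ± 0.22 and 1.13 ± 0.52 (SE). PNPLA7, ZNF189 and EME2 had -1.43 ± 0.87, -0.29 ± 0.37 and -0.28 ± 0.32 (SE). EME1 rose (0.88 ± 0.29) facing MRPL27, which was not called. With Tranilast against cisplatin 6 of the 14 were lower, where 11.6% of all genes were, and 1 facing gene was lower with its member. MRPL36 had a log2 fold change of -1.14 ± 0.39 and its neighbour NDUFS6, a subunit of respiratory complex I, -1.05 ± 0.32 (SE, edgeR adjusted p = 0.0425 and 0.0245). MITD1 was lower (-0.69 ± 0.22) facing MRPL30, which was not called.

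Member genes are short, and the change with cisplatin was ordered by gene span, the distance from the first to the last base of a gene. The median span was 11504 bases for tested members and 32854 bases for the other tested protein-coding genes. Of 29 members spanning under 8000 bases, 18 rose and 0 fell (62.1% and 0%), with a median log2 fold change of 0.64, and among 1394 other genes of that span 44.5% rose and 6.38% fell, with a median of 0.64. Between 8000 and 16000 bases, 11 of 20 members rose and 0 fell, and the medians were 0.59 for members and 0.50 for 1512 other genes. At 16000 bases and over, 6 of 26 members rose and 3 fell, with a median of 0.12, against -0.33 for 7100 other genes, of which 10.8% rose and 32.6% fell. The 3 members that fell, MRPS28, MRPL1 and MRPS31, span 111573, 90271 and 42039 bases, while MRPS27, which was level, spans 101238 bases. Among the 6 of this class that rose, MRPL33 spans 216371 bases, more than any that fell, and MRPL37 spans 41424 bases. MRPS22, the longest at 351418 bases, was not called. The medians of members and other genes were closest in the shortest class and farthest apart in the longest. Over the 75 members Spearman's rho between span and log2 fold change was -0.39, and over 10006 other genes -0.62; these points share the same libraries.

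With Tranilast against cisplatin the medians for members were -0.50, -0.67 and -0.22 from the shortest to the longest class, with no steady order, and for other genes -0.47, -0.29 and 0.23, rising with span. With Amphotericin B against cisplatin, members of the 3 classes had medians of 0.20, -0.0019 and 0.31, and other genes -0.02, -0.20 and -0.02. Transcript length gave a similar picture with less order within the members: the longest annotated transcript had a median of 1500 bases in members and 3498 in other genes, and Spearman's rho with the change by cisplatin was -0.07 in members and -0.38 in other genes. The part of gene span in the results above was not tested.

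**Figure D4:**
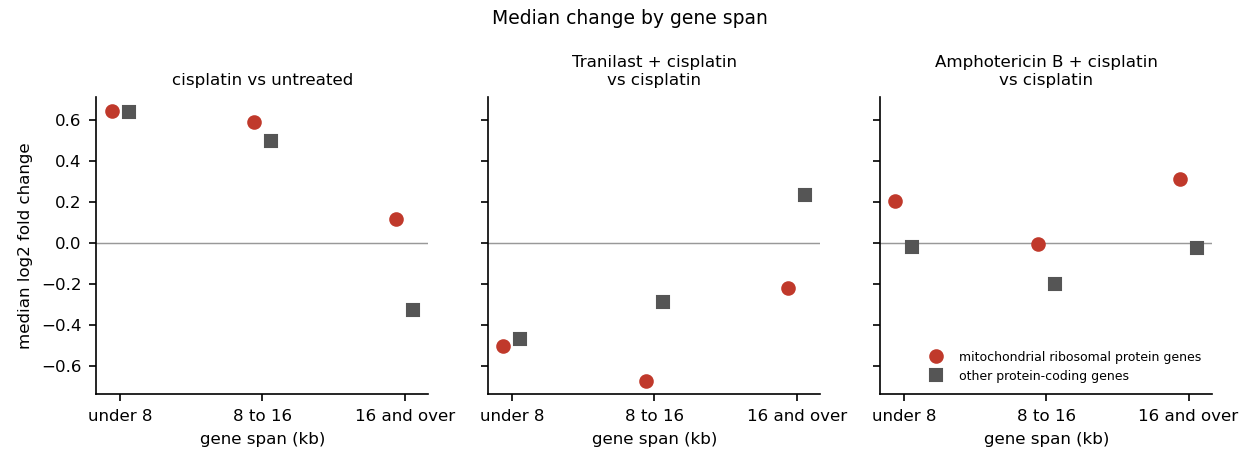
Median log2 fold change of members (circles; 29, 20 and 26 genes) and of other tested protein-coding genes (squares; 1394, 1512 and 7100 genes) by gene span in GENCODE 29. With cisplatin the medians fall from 0.64 in the shortest class to 0.12 for members and -0.33 for other genes in the longest; with scaling by library size only, the median of all genes moves to -0.36 with cisplatin and 0.46 with Tranilast, and that of the 75 members with Tranilast turns from -0.40 to 0.05.

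The members work with ribosomal RNA, assembly factors and translation factors, and make parts of the respiratory chain, so these lists were read beside them and beside the cytosolic ribosome. Of all genes tested, 21.1% rose and 23.6% fell with cisplatin, and 11.6% were lower and 10.5% higher with Tranilast. Of 76 tested cytosolic ribosomal protein genes, 73 rose and 0 fell with cisplatin (median 1.17), and 75 were lower and 0 higher with Tranilast (median -1.26). Of 75 nuclear respiratory chain subunits, 37 rose and 1 fell with cisplatin (median 0.76), and 40 were lower with Tranilast (median -0.88). The single fall was NDUFS1, a complex I core subunit, at -0.73 ± 0.18 (SE). Of the 15 genes of the mitochondrial genome, 10 rose with cisplatin and 10 were lower with Tranilast; MT-RNR2 was 12605, 16125 and 15599.5 CPM in untreated cells and 144872, 47516 and 25688 CPM with cisplatin, and 16853, 14209 and 14359.9 CPM with Tranilast. With Amphotericin B against cisplatin, 0 cytosolic ribosomal protein genes were called (median 0.18), and 5 respiratory chain subunits were higher and 0 lower (median 0.45). In that comparison 3 genes of the mitochondrial genome were lower (median 0.07), where 4.21% of all genes were higher and 9.01% lower. With Telmisartan 0 genes of any list were called.

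Of 24 tested assembly factors of the mitoribosome, 8 were higher (33.3%) and 4 lower (16.7%) with cisplatin (median 0.36), where 21.1% of all genes rose and 23.6% fell. MRM2, which methylates the large ribosomal RNA, and MALSU1, which holds the subunits apart during assembly, rose by 1.5 ± 0.21 and 1.45 ± 0.25 (SE). METTL15 and TFB1M, which methylate the small ribosomal RNA, fell, at -1.91 ± 0.37 and -1.02 ± 0.30 (SE). With Tranilast, MRM2 was lower (-0.76 ± 0.21) and METTL15 and TFB1M higher (1.30 ± 0.37 and 0.94 ± 0.30). Of the 24, 2 were lower and 2 higher (8.33% each), where 11.6% of all genes were lower and 10.5% higher. With Amphotericin B, 5 assembly factors were lower than with cisplatin (20.8%), led by MRM2 and MALSU1 (-1.23 ± 0.22 and -1.16 ± 0.27). YBEY alone was higher (4.17%), where 9.01% of all genes were lower and 4.21% higher. Among 15 tested translation factors and messenger RNA binding proteins, 2 rose (13.3%) and 5 fell (33.3%) with cisplatin (median -0.16), beside 21.1% and 23.6% of all genes. LRPPRC, which stabilises mitochondrial messenger RNAs, fell at -1.36 ± 0.17 (SE) while SLIRP, its partner in that complex, rose at 1.04 ± 0.34 (SE). With Tranilast LRPPRC was higher (0.63 ± 0.17) and SLIRP lower (-1.31 ± 0.34). Of 6 mitoribosomal proteins and partners with other symbols, GADD45GIP1 and CHCHD1 were among the 3 that rose with cisplatin (1.38 ± 0.25 and 0.78 ± 0.21), and PTCD3 fell (-0.50 ± 0.17).

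Of 10 tested regulators of nuclear genes for mitochondrial proteins, TFAM and ESRRA rose with cisplatin (20%) and GABPA, GABPB1 and PPARGC1B fell (30%). These shares are near those of all genes, of which 21.1% rose and 23.6% fell. TFAM, which packs mitochondrial DNA and starts its transcription, had 58.3, 56.1 and 57.3 CPM in untreated cells, 221, 213 and 153 CPM with cisplatin and 88.6, 73.1 and 85.8 CPM with Tranilast. These ranges did not overlap, with log2 fold changes of 1.77 ± 0.18 for cisplatin and -1.24 ± 0.18 for Tranilast (SE; edgeR adjusted p = 5.72e-06 and 0.00114). GABPA, which reads the ETS letters, and GABPB1, its partner subunit, were at -1.05 ± 0.41 and -0.93 ± 0.32 with cisplatin (SE). YY1 was at -0.19 ± 0.22, NRF1 at -0.77 ± 0.44, MYC at 0.24 ± 0.45, SP1 at 0.17 ± 0.22 and PPRC1 at 0.71 ± 0.31 (SE), none of them past the threshold.

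**Figure D5:**
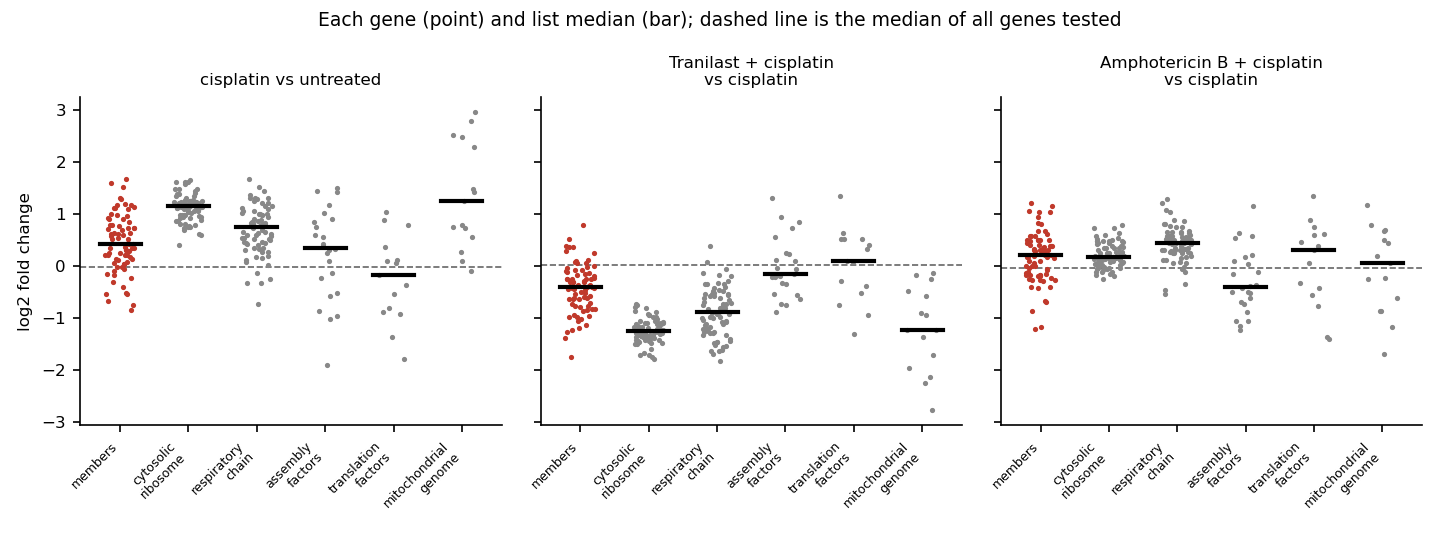
Log2 fold change of each tested gene (points) and median (bars) of the 75 members, 76 cytosolic ribosomal protein genes, 75 respiratory chain subunits, 24 assembly factors, 15 translation factors and 15 genes of the mitochondrial genome; the dashed line is the median of all genes tested. With cisplatin the medians are 0.43, 1.17, 0.76, 0.36, -0.16 and 1.26; with scaling by library size only the members' median with Tranilast changes sign, from -0.40 to 0.05.

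Reads at some members can come from neighbours. The setting for strand in counting is not given in the sources used here, so reads where genes overlap on opposite strands cannot be told apart. Of the members, 32 overlap a gene that reached at least 10 counts in a library, 26 of them on the opposite strand. The largest was FAU, a cytosolic ribosomal protein gene on the strand opposite MRPL49, with up to 5929 counts in a library, while MRPL49 had at most 95 in any library. Next on the opposite strand came CACYBP with MRPS14 (630), COPB2 with MRPS22 (361), ACTL6A with MRPL47 (273), NCAPD2 with MRPL51 (201), TWNK with MRPL43 (197) and PSMA2 with MRPL32 (183). MIF4GD with MRPS7, ABHD8 with MRPL34, SSBP3 with MRPL37 and SARS2 with MRPS12 reached 149, 147, 126 and 122 counts, and the other opposite-strand neighbours of tested members at most 130. On the same strand, DNAJC9 overlaps MRPS16, NIPSNAP2 overlaps MRPS17, CCDC142 overlaps MRPL53 and TMEM8A overlaps MRPL28, at 270, 235, 233 and 222 counts at most, and BABAM2 overlaps MRPL33 at 49. The part of these neighbours in the changes of the members was not tested. Processed copies are many by name, 59 for 31 members, and only those of MRPS31 reached 10 counts, with at most 14 against up to 204 for MRPS31 itself.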

How the data were processed

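QuantSeq 3′ libraries were made from 100 ng of RNA and sequenced to 75 bp reads; per the submitters' processing notes the tools were STAR 2.3.0 and HTSeq with hg19, and the annotation release and strand setting are not given in the sources used here. The authors deposited 1 table of raw counts per gene for each of the 15 libraries, whole reads with no normalization. Totals of 1510620 to 3517041 counts put 3 counts at 8.53e-05% to 0.000199% of a library, for counting error only. Gene names came from GENCODE 29 (45776 of 47634 identifiers matched), and since its build differs from that of the tables none of its coordinates are printed; promoters came from RefSeq (GRCh38.p14).

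The counts were fitted with edgeR 4.0.16 (R 4.3.3): genes filtered by filterByExpr, TMM factors (0.721 to 1.27), a quasi-likelihood fit of condition over all 15 libraries so that the conditions share 1 estimate of the spread, and an F test for each of 10 pairs of conditions, with Benjamini-Hochberg adjustment over all 11113 genes tested and a threshold of 0.05. The SE is the log2 fold change divided by the root of F. CPM carry no prior count, and the log2 ratio of MRPS11 to MRPL46 was taken from log2 CPM with a prior count of 2. Alternatives were DESeq2 1.42.0, median-ratio factors, library size only, no filter, only the 6 libraries compared, the replicate number as a block, and each library left out in turn. The fits were tested on simulated data. Python 3.11.15 with pandas 2.3.3, scipy 1.17.1 and matplotlib 3.10.9 gave the rest.

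The members, gene lists, markers and roles were chosen with earlier results of these data known. The members named were the 8 with the smallest adjusted p in each direction per main comparison (4 by unadjusted p where none passed), 3 in each other comparison, those with the smallest change, the lowest and highest levels, and members of known role; MRPL46, the lists of all called members, the facing genes and the classes of gene span were chosen after values were seen. The label for ovarian carcinoma was checked with 8 markers and other cell types with 4 leukocyte, 4 fibroblast and 3 endothelial markers; the fibroblast markers summed to 59 to 77 counts in untreated libraries, 40 to 76 with cisplatin and 23 to 137 in the others, and of the endothelial markers CDH5 and VWF were at 0 in all libraries.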

Additional observations from a re-analysis of the deposited data

How the results depend on the processing

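The counts of calls moved with scaling. The distance of the members' median from that of all genes hardly did, but a change of scaling moves all genes by nearly the same amount. That distance therefore cannot test the results. By library size only, the members lower and higher were 6 and 14 for cisplatin against untreated, 5 and 5 for Tranilast against cisplatin, 2 and 3 for Amphotericin B against cisplatin, 2 and 7 for Telmisartan against untreated, 4 and 16 for Amphotericin B against untreated, 0 and 0 for Tranilast against Telmisartan, and 10 and 15 for Tranilast against Amphotericin B. In fits of only the 6 libraries compared, Tranilast against cisplatin gave 0 higher, Amphotericin B against cisplatin 0 lower and 1 higher, Tranilast against untreated 7 and 14, Amphotericin B against untreated 1 and 59, and Tranilast against Telmisartan 0 lower. DESeq2 called 10 members higher for Amphotericin B against cisplatin, 3 higher for Tranilast against untreated and 18 lower for Tranilast against Telmisartan. With no filter on low counts, Tranilast against untreated gave 1 lower and 0 higher, Amphotericin B against untreated 1 lower, and Tranilast against Telmisartan 13 lower. The cause of these changes was not tested. Shares of all genes are not printed beside the refit counts in this section. The counts therefore describe the fits and are no result about the members alone.

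With each library left out in turn, members lower and higher ranged over 2 to 4 and 23 to 38 for cisplatin against untreated, 11 to 30 and 0 to 3 for Tranilast against cisplatin, 0 and 0 to 1 for Telmisartan against cisplatin, 1 to 7 and 1 to 18 for Amphotericin B against cisplatin, 0 to 1 and 0 to 4 for Tranilast against untreated, 0 to 1 and 9 to 32 for Telmisartan against untreated, 0 to 1 and 27 to 41 for Amphotericin B against untreated, 0 to 32 and 0 to 1 for Tranilast against Telmisartan, 29 to 44 and 0 to 2 for Tranilast against Amphotericin B, and 0 to 1 and 0 for Telmisartan against Amphotericin B. For Amphotericin B against cisplatin, the counts lower and higher were 1 and 1 without cisplatin replicate 2, 1 and 3 without cisplatin replicate 3, and 1 and 2 without Amphotericin B replicate 1. Over the 21 refits of each called member, calls lower and higher held in 59 of 63 and 635 of 735 cases for cisplatin against untreated, 384 of 462 and 18 of 21 for Tranilast against cisplatin, and 41 of 63 and 88 of 126 for Amphotericin B against cisplatin, and the direction changed in 0. Among the last, MRPL12 held in all 21 and MRPL44 in all but the fit of 6 libraries (adjusted p = 0.0506), whereas MRPS30, MRPS28, MRPL23 and MRPS18A were lost in 16, 13, 11 and 7.

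No steady pairing of libraries by replicate number was seen across the conditions. Correlations of same-numbered deviations ran from -0.235 to 0.631, and none of the 10 pairs of conditions had all numbers over 0.1. The best match had the same number in 10 of 30 comparisons. The labels do not say whether same-numbered libraries were handled together, and 3 libraries per condition cannot settle it. With the replicate block the counts lower and higher were 3 and 34 for cisplatin against untreated, 23 and 1 for Tranilast against cisplatin, 2 and 8 for Amphotericin B against cisplatin, 0 and 1, 0 and 26 and 0 and 38 for Tranilast, Telmisartan and Amphotericin B against untreated, 10 and 0 for Tranilast against Telmisartan, 39 and 1 for Tranilast against Amphotericin B, and 0 and 0 for the other pairs. Depth limits the members of lowest level: MRPL36 had at most 29 counts in a library, and MRPS18B could not be tested.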
